A study of Mus musculus with 28 samples.

Results

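Intronic distal regions are stretches of accessible chromatin inside protein-coding genes, away from exons and from promoters. They were taken from 2 ATAC-seq peak lists of purified mouse Müller cells, 1 from a control and 1 from a db/db sample. On chromosomes 1 to 19, overlapping peaks of a list were merged, and a merged region of at most 3 peaks was kept when its summit lay inside a protein-coding gene, in no exon, and more than 1 kb from every transcription start site (TSS) of the GENCODE M21 annotation. The control list held 14072 such regions among 45198 merged regions, or 31.1% (95% Wilson interval 30.7 to 31.6). The db/db list held 21983 among 63598, or 34.6% (34.2 to 34.9). With X and Y, the lists held 46189 and 64883 merged regions. A further 450 and 747 intronic regions were made of more than 3 peaks and were left out by the rule. No measured value entered the choice apart from the position of the summit, which is that of the merged peak with the highest signal.

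Introns hold a large part of the enhancers of a mammalian genome, the stretches of DNA at which transcription factors bind to raise the output of a promoter that can lie far away. ATAC-seq marks such places because the Tn5 transposase cuts and tags DNA where nucleosomes are displaced. Müller cells are the principal glia of the retina. They span its whole thickness, clear glutamate and potassium from around the neurons, and respond to injury and diabetes with gliosis.

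The study compared Müller cells of control mice with those of diabetic mice, both 6 months old. The diabetic mice were homozygous for the db mutation of the leptin receptor gene Lepr on a BKS background and came from colonies of 2 suppliers. The control library is labelled WT, and the study's methods name wild type and heterozygous db/+ mice, which do not become diabetic, as its controls. Animals of both sexes were used, cells were enriched with magnetic beads through the surface protein CD29 after cells carrying other surface markers had been removed, and nuclei were tagged with the omni-ATAC protocol. Each list is attached to replicate 1 of its genotype. With 1 list per genotype, no difference between the genotypes has a replicate check and none was tested. All intervals given here cover counting error only.

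The lists differ in size throughout: db/db held 1.41 times as many merged regions as control and 1.56 times as many intronic distal regions. A db/db list reduced to the 45198 merged regions with the highest −log10 p, as many as in control, held 13937 intronic distal regions (30.8%, 30.4 to 31.3), against 14072 (31.1%) in control. The total is then equal by construction, and the intervals of the shares overlapped. Counts in db/db below are those of the full list unless said otherwise, and values at equal length are given for the 12 gene lists and for a number of single genes. As a check of the cell type, 14 and 15 of 15 Müller marker genes had a region within 1 kb of a TSS in control and db/db, against 3 and 3 of 12 microglia genes and 5 and 7 of 12 endothelial and pericyte genes. Rod genes had one in 12 and 10 of 15, astrocyte genes in 5 and 5 of 7, and bipolar cell genes in 6 and 5 of 11. Cone genes had one in 5 and 4 of 9, and amacrine, horizontal and ganglion cell genes in 7 and 9 of 17. Of all genes with bases that could hold an intronic distal region, 11601 had such a promoter region in control and 6783 did not. In db/db the numbers were 12188 and 6196. The part of other cells in the regions below was not tested.

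Letters of the genome were at hand only for windows at RefSeq starts (build GRCm38.p6), and 36 control and 51 db/db regions had their summit in such a window, although GENCODE M21 has no TSS within 1 kb. Of these, 28 and 35 had 50 bases to each side inside the window. The examples printed here all lie in windows at RefSeq starts and do not stand for the other members. They show the hexamers or heptamers found at such sites. They were chosen after their values were seen. Each is 101 bases long with the summit in the middle, on the plus strand, and carries the name of the coding gene around it. Capitals mark a match, on either strand, to the NFI string TTGGCA, the AP-1 string TGANTCA, the E-box CAGCTG or the glucocorticoid receptor string AGAACA. The first set comes from the control list and is shared with db/db.
3300002I08Rik, chr2:150311343-150311443: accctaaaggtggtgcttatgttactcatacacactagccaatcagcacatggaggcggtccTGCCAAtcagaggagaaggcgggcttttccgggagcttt
Etv6, chr6:134248942-134249042: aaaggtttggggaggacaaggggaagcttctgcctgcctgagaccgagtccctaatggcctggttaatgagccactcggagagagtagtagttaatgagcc
Prkce, chr17:86444960-86445060: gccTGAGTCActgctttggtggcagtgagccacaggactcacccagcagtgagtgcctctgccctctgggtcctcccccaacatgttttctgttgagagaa
Pde4d, chr13:109441009-109441109: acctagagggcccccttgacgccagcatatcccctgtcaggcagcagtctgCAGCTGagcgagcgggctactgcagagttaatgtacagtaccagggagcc
Notch2, chr3:98026111-98026211: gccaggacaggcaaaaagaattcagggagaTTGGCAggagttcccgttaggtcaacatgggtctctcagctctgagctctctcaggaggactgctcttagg
The second set comes from the db/db list. The Nfia site is shared, and the other sites were found in db/db only.
Nfia, chr4:97868991-97869091: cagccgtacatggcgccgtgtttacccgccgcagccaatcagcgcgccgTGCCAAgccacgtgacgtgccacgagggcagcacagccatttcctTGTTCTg
Scaper, chr9:55556896-55556996: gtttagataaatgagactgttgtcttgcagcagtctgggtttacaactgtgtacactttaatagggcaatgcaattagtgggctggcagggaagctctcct
Bcar3, chr3:122480205-122480305: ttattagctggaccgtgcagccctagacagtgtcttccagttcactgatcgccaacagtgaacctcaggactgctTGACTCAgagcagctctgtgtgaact
Signal here and below is the value that the authors deposited for the peak in the column that the file format sets aside for a measure of enrichment. How it was scaled is not given. The site in 3300002I08Rik had the highest signal of the control set, 21.2. The control signal was 18.5 in Etv6, a gene for a repressor of the ETS family, 14.1 in Prkce, 13.5 in Pde4d and 5.49 in Notch2. The db/db signal was 6.92 in Nfia, 7.37 in Scaper and 4.02 in Bcar3.

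Among these 101-base sites, the NFI string was present in 5 of 28 control (17.9%) and 7 of 35 db/db sites. All 5 control sites lay at the same places as db/db sites with the string, so the lists are not separate observations. The string was present in 4.93% of 31396 RefSeq start windows over a stretch of the same length. That stretch was bases 101 to 201 of each window, not centred on a summit, and all windows were used whether accessible or not. NFI proteins, of which Nfia, Nfib and Nfix are glial members, bind a palindrome of this string. The E-box CAGCTG stood in 10.7% and 8.57% of the sites and in 5.56% of the windows, the AP-1 string in 3.57% and 5.71% and in 3.04%, and GGATTA, bound by the photoreceptor factors CRX and OTX2, in 7.14% and 2.86% and in 2.58%. The TEAD string GGAATG was in 0 and 1 of the sites (5.38% of windows) and the glucocorticoid receptor string in 0 and 1 (6.55% of windows). The SOX string ATTGTT (3.77% of windows) and the homeodomain string TAATTA (2.04%) were in none of the sites. GGATTA and TAATTA can share bases, and no matches shown above do. A match is a description of the letters only, and these sites are a small and special share of all members, since 1.23% of 13541 control and 1.09% of 21165 db/db members on chromosomes with such windows lay within 1 kb of a RefSeq start.

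Intronic distal regions were narrow. Their median width was 642 bp in control and 586 bp in db/db, and they covered 9.39 and 13.6 Mb. In control 8406 were made of 1 peak, 4334 of 2 and 1332 of 3, and in db/db 13615, 6343 and 2025. Their distance to the nearest TSS had a median of 11.8 kb (quartiles 4.98 and 27.7) in control and 12.1 kb (5.08 and 28.7) in db/db. Only 8.18% and 7.91% lay less than 2 kb from a TSS, and 12.2% and 12.6% lay more than 50 kb away. Neighbouring regions of the same gene had a median gap of 16.5 kb in control and 12.3 kb in db/db, and 17.1% of 9293 and 23.1% of 16334 neighbouring pairs lay within 5 kb. By chromosome, intronic distal regions made up 26.5% to 34.9% of control and 29.9% to 37.7% of db/db regions.

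The distance of 1 kb from a TSS is a threshold of the rule. The regions nearest to it were members in Crb2, a cell polarity gene, at 1003 bp, and in Arvcf and Chl1 at 1004 bp in control, and in Mgat5, Tbxa2r and Ptch1 at 1001 bp in db/db. The nearest not kept were those in Pcx at 1000 bp and in Neu2 and Erc2 at 999 bp in control, and in Crb2, Rnf24 and Ano1 at 1000 bp in db/db. The Crb2 region is the same place in both lists, with a signal of 3.57 in control and 4.94 in db/db, and its summits lay 1003 bp and 1000 bp from the TSS.

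The number of regions per gene followed the length of its introns. Of 20807 protein-coding genes on these chromosomes, 18384 had bases that could hold a member (in an intron, more than 1 kb from any TSS), 849.368 Mb in all when summed over genes. A summit inside several genes was counted for each, which gave 14432 pairs of region and gene in control and 22565 in db/db. This came to 17.0 pairs per eligible Mb (exact Poisson interval 16.7 to 17.3) and 26.6 (26.2 to 26.9), and to 16.8 in db/db at equal length of the lists. At least 1 region was found in 5139 genes (28.0%) in control and 6231 (33.9%) in db/db, at least 5 in 835 and 1377, and at least 20 in 21 and 106. The mean number per gene was 0.0406 for genes with 1 to 5 kb of eligible bases and 9.38 for those over 500 kb in control, and 0.0603 and 15.3 in db/db.

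Corrected for length, the density rose with gene length and then fell in the very long genes. In control it was 14.6 per Mb in genes with 1 to 5 kb, 17.96 with 20 to 50 kb, 19.6 with 50 to 100 kb and 19.9 (19.2 to 20.6) with 100 to 200 kb. In the 198 genes over 500 kb it was 11.0 per Mb (10.5 to 11.5). The db/db list had the same order, with 21.7, 27.1, 29.8 and 31.8 (31.0 to 32.7) per Mb, and 17.9 (17.2 to 18.5) in the longest genes. Intervals of the 100 to 200 kb class and of the longest class did not overlap in either list. Across genes, Spearman's rank correlation between number and eligible length was 0.584 in control and 0.636 in db/db (n = 18384 genes). For the density in genes of 50 kb or more it was 0.060 and 0.048 (n = 3916 genes). Genes are not independent replicates, and both values are descriptions.

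**Figure D1:**
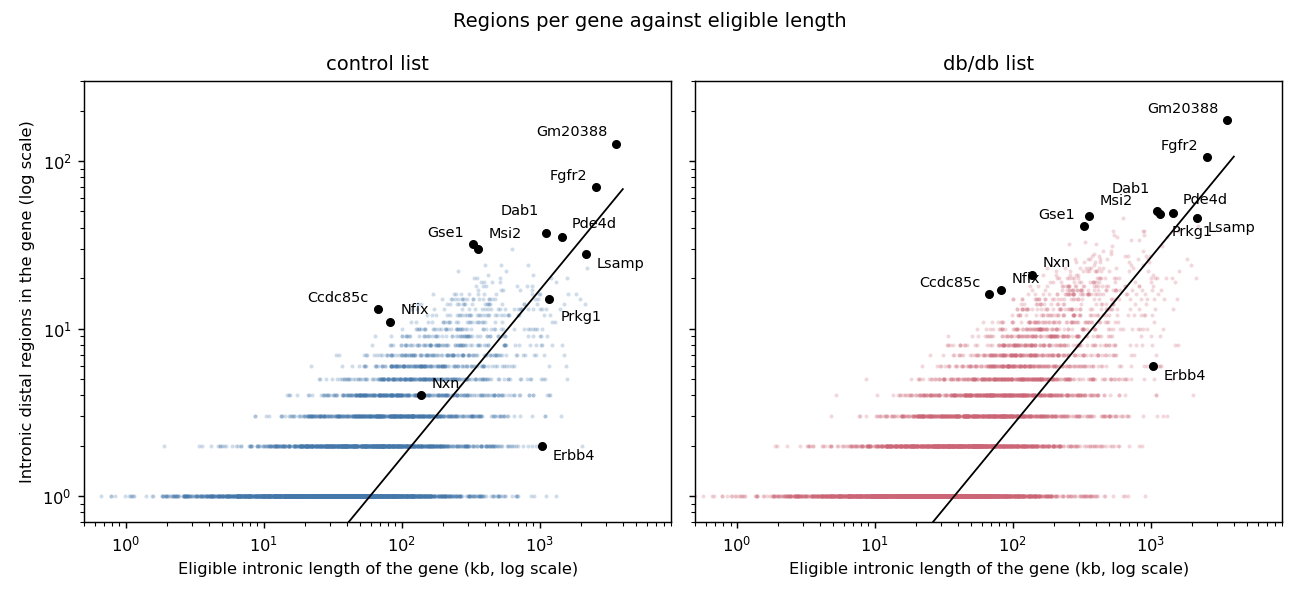
Number of intronic distal regions in a gene (vertical, log scale) against its eligible intronic length in kb (horizontal, log scale), with 1 point per gene that has at least 1 region, for the control list (left) and the db/db list (right). The line is the number expected from the density of the list, 17.0 and 26.6 per Mb. Ccdc85c, Nfix, Gse1 and Msi2 lie above it in both panels, Erbb4 and Lsamp below it, and Prkg1 lies below it in control and above it in db/db.

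Long genes differed widely in density. Of 3916 genes with at least 50 kb, 1094 (27.9%) had no region in control and 750 (19.2%) had none in db/db. The ratio of the observed number to the number expected from eligible length had a median of 0.81 and 0.80 and a 90th percentile of 2.83 and 2.59. It was 3 or more in 347 genes (8.86%) in control and 251 (6.41%) in db/db. A small set of genes held much of the total, since 855 genes in control and 882 in db/db held 50% of all pairs. Between the lists, Spearman's rank correlation of the densities was 0.869 across these long genes.

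Genes with an accessible promoter held more intronic regions per base. Genes with a region within 1 kb of one of their TSS in the same list had 19.3 intronic regions per Mb in control, and the others 10.2, a ratio of 1.88 (1.80 to 1.97). In db/db the densities were 29.7 and 14.2 per Mb, a ratio of 2.10 (2.01 to 2.19). Restricted to genes of 50 kb or more, which removes the short genes, the ratios were 1.96 and 2.16.

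The first intron of a gene holds the bases next to its promoter and is known for its regulatory elements. In 1 representative transcript per gene, first introns held 29.8% of the pairs in control (29.0 to 30.6) and 30.2% in db/db (29.6 to 30.9), and 25.5% of the eligible bases. The density in first introns was 1.24 times that in later introns in control (1.20 to 1.29) and 1.27 times in db/db (1.23 to 1.31). It fell stepwise with the number of the intron. In control it was 19.99 per Mb in intron 1, then 18.1, 17.3, 16.3 and 15.6 in introns 2 to 5, and 14.9 in those after. In db/db it went from 31.9 through 29.0, 27.2, 24.4 and 23.7 to 23.2. The last intron had 15.4 and 23.2 per Mb, close to the introns after intron 5. In all, 2043 control and 2653 db/db genes had a region in the first intron, and 3815 and 4770 in a later one.

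The surplus of first introns was seen at equal distance from the TSS of the gene, up to 100 kb, with intervals above 1 except at 1 to 2 kb in control (0.982 to 2.01). From 10 to 20 kb the ratio of first to later introns was 1.47 (1.33 to 1.61) in control and 1.56 (1.44 to 1.68) in db/db, and from 50 to 100 kb it was 1.15 (1.04 to 1.26) and 1.18 (1.10 to 1.27). From 100 to 200 kb it turned, at 0.790 (0.689 to 0.904) and 0.823 (0.741 to 0.914), and beyond 200 kb the intervals included 1 in both lists. It also depended on the length of the intron. In introns of 20 to 50 kb the ratio was 1.37 (1.27 to 1.47) and 1.38 (1.296 to 1.46), and over 100 kb it was 1.27 and 1.21. In introns of 5 to 10 kb it was 0.897 (0.779 to 1.03) and 0.926 (0.827 to 1.04). Among genes without an accessible promoter it was 0.912 (0.823 to 1.01) and 0.935 (0.849 to 1.03), against 1.32 in both lists among genes with one. The intervals of these gene classes did not overlap in either list. First introns with eligible bases had a median length of 5.61 kb, and later ones of 1.62 kb.

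**Figure D2:**
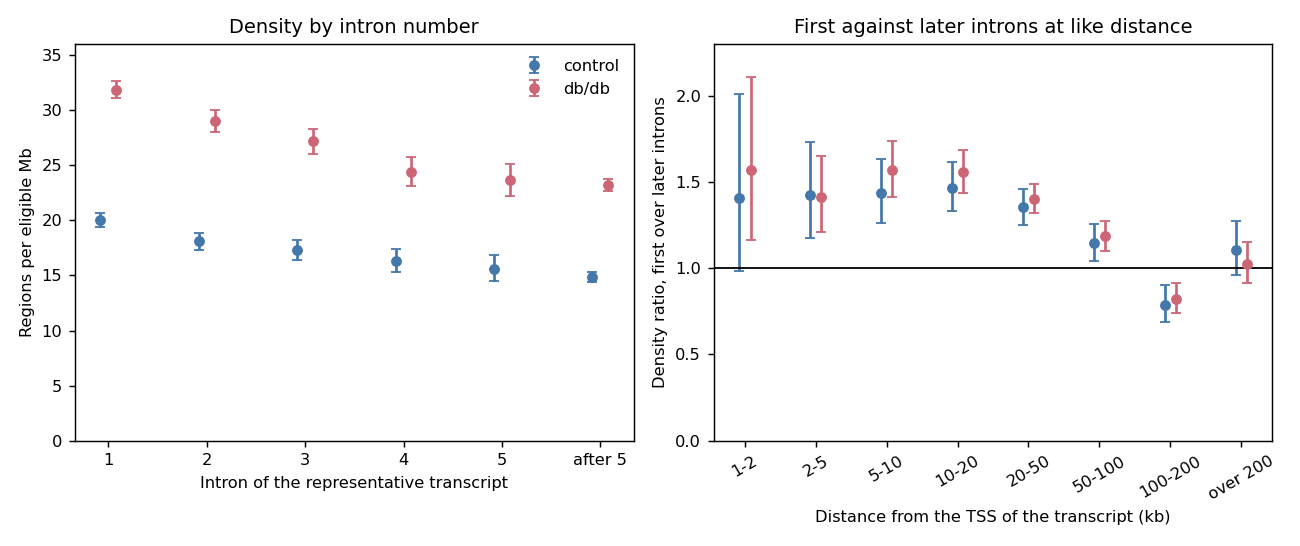
Left, regions per eligible Mb by intron number of the representative transcript, with exact Poisson intervals, falling from 19.99 to 14.9 in control and from 31.9 to 23.2 in db/db. Right, ratio of the density in first introns to that in later introns by distance from the TSS in kb, with intervals for counting error; the line at 1 marks equal density, and only the points at 100 to 200 kb have their whole interval under it.

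Regions in first introns were the weaker ones. Signal was ranked among all regions of a list, so that 0 is the weakest and 100 the strongest, since the scaling of the deposited values is not given. The median percentile was 32.1 in intron 1, 36.9 in intron 2, 40.2 in intron 3 and 45.4 after intron 5 in control, and 33.0, 37.1, 40.1 and 46.2 in db/db. Regions 1 to 5 kb from a TSS had a median percentile of 32.2 and 35.0, and those over 50 kb away 44.7 and 44.3. By number of the intron, density thus fell while the percentile rose. By distance from the TSS of the gene the density also rose at first, in control from 14.4 per Mb at 2 to 5 kb to 23.8 at 10 to 20 kb in first introns, and from 10.1 at 2 to 5 kb to 18.8 at 50 to 100 kb in later introns. In db/db it rose from 22.1 to 37.0 in first introns and from 15.6 to 29.0 in later introns over the same distances.

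As a class, intronic distal regions ranked below the other classes. Their median percentile was 39.7 in control (quartiles 19.02 and 62.1) and 40.5 in db/db (19.3 and 64.5). It was 71.2 and 70.6 for the promoter regions, 48.6 and 49.0 for intergenic regions, 41.2 and 42.2 for exonic regions away from promoters, and 48.1 and 48.0 for introns of noncoding genes. Only 2.96% and 4.28% of intronic distal regions stood above the 90th percentile of their list, against 6.06% and 7.31% of intergenic and 23.8% of promoter regions in both lists. Under the 20th percentile stood 26.3% and 25.9% of them. Without merging of peaks their median percentile was 50.2 and 48.7 among all peaks. On the scale of the deposited values, the median signal was 9.34 in control, with a range from 1.75 to 40.2, and 7.53 in db/db, with a range from 1.54 to 35.6.

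The strongest regions were the same places in both lists. The highest signal, 40.2 in control and 35.6 in db/db, was in intron 2 of Gnb1l (chr16:18533121-18533395, mm10). Next in both lists was a region in intron 2 of Gphn, the gene of the synaptic scaffold gephyrin (chr12:78350798-78351246), with 33.8 and 31.1. A region in intron 1 of Zfp13 (chr17:23592481-23593143 in control) had 32.7 and 29.9. The control list continued with intron 16 of Asph (chr4:9530291-9530652), at 28.8 and 29.7, and intron 10 of Cntnap5b (chr1:100180034-100180490), at 28.7 and 28.2. The db/db list had intron 7 of Miga1 (chr3:152315602-152316047) and intron 2 of Mrps27 (chr13:99353085-99353855) among its highest, with 30.2 and 29.8, and 28.0 and 28.5 at the same places in control. All were above the 99th percentile of their list.

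Regions found in 1 list only were more frequent among intronic regions than in the whole lists. In control, 811 of 14072 had no overlap with any db/db region, or 5.76% (5.39 to 6.16), where the share over all 45198 regions was 4.07%. In db/db, 8748 of 21983 had none in control, or 39.8% (39.1 to 40.4), where the share over all regions was 31.4%. Promoter regions had 2.14% and 15.2%, intergenic regions 4.62% and 36.6%, and exonic regions 5.07% and 38.8%. With lists of equal length the shares were close to each other, at 17.96% (17.3 to 18.6) of 14072 control and 17.7% (17.1 to 18.3) of 13937 db/db regions. At equal length the shares were 6.58% and 5.79% of promoter regions and 13.1% and 12.9% of all.

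Most of these regions were weak. The regions of a list were split into 5 equal classes of signal. The share of intronic distal regions found in db/db only fell from 71.4% in the weakest class through 52.8%, 30.3% and 11.7% to 2.70% in the strongest. The control shares were 11.1%, 6.83%, 3.30%, 2.05% and 0.868%. In the weakest class, intergenic regions had 73.5% in db/db and 13.3% in control, and promoter regions had 52.4% and 8.93%. In class 4 of 5 the db/db shares were 11.7% in introns, 12.2% between genes and 3.71% at promoters. Within each class and in both lists, intronic and intergenic regions had higher shares than promoter regions, and in db/db the intergenic share was the highest in each class but the strongest. Regions of 1 peak were found in 1 list only more often than those of 2 or 3, at 7.03% against 3.88% in control and 43.2% against 34.3% in db/db. By number of the intron the shares ranged from 4.96% to 6.34% in control and from 38.2% to 41.3% in db/db. The distance to the TSS had opposite orders in the lists, from 6.58% at 1 to 5 kb to 4.35% over 50 kb in control, and from 38.5% to 41.2% in db/db.

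**Figure D3:**
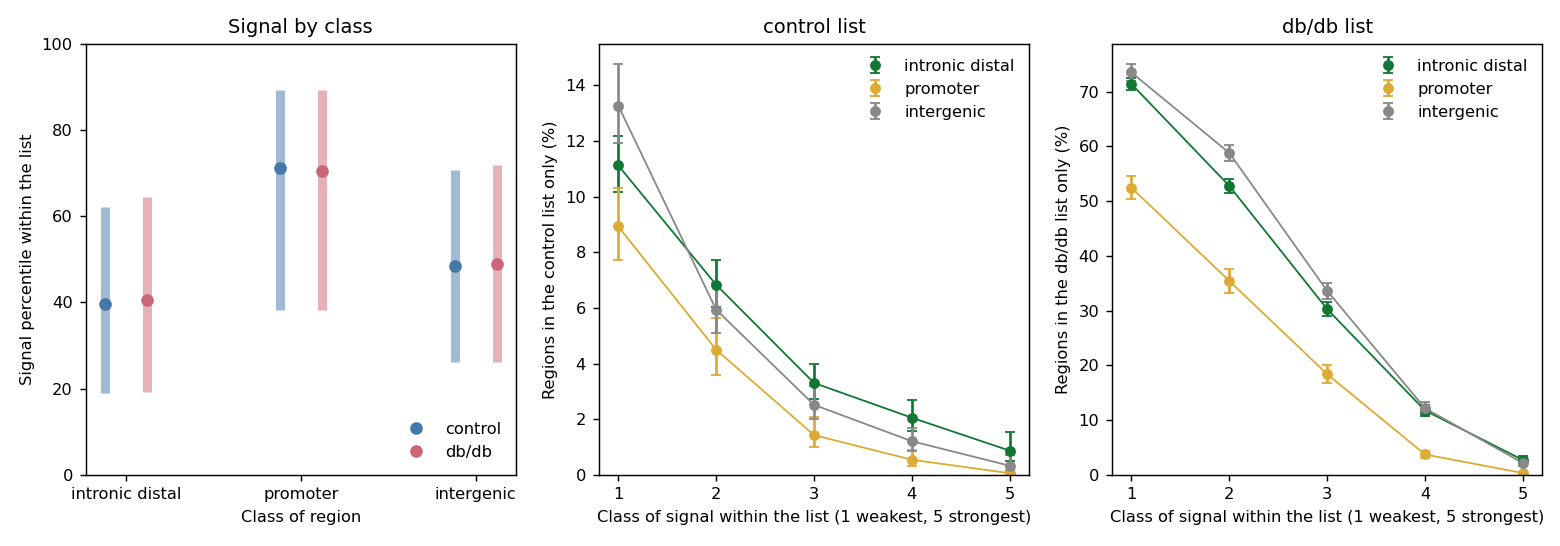
Left, percentile of the signal within the list for intronic distal, promoter and intergenic regions (points are medians, bars run from the lower to the upper quartile). Middle and right, share of regions in percent found in the control list only and in the db/db list only, by class of signal (class 1 the weakest, class 5 the strongest), with 95% Wilson intervals; the vertical scales of these panels differ. Shares fall with signal in each kind of region, for intronic distal regions from 11.1% to 0.868% and from 71.4% to 2.70%.

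Shared regions lay at the same bases. Of 13261 shared control regions, 13110 had exactly 1 partner in each direction, and 12769 partners (97.4%) were intronic distal regions too. The median distance between the summits was 8 bp, and 93.4% lay within 50 bp. Spearman's rank correlation of the signal of partners was 0.904 across these regions, which are not independent samples.

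A few regions were strong and yet present in 1 list only. In control the highest were in intron 5 of Arl5b (chr2:15075867-15076251), with a signal of 20.1 at the 92.9th percentile, in Rnaset2a (19.9), in intron 19 of Crebbp, the gene of a histone acetyltransferase (19.2), in Cnpy3 (18.1) and in Gm4756 (17.98). In db/db they were in intron 1 of Arhgap39 (chr15:76770234-76770851), with 18.7 at the 94.4th percentile, in U2surp (18.6), Plxdc2 (18.5) and L3mbtl4 (18.3). None of these had an overlapping peak in the other list, whose depth is not given.

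The richest genes by number were long. The top entry, Gm20388 on chromosome 8, with 127 regions in control and 176 in db/db, is a readthrough model with 71 other coding genes inside its span. Fgfr2 followed with 70 and 106, but its longest model in M21 spans 29 further coding genes, and only 1 and 3 of these regions lay in introns of its representative transcript. Dab1, the adaptor of reelin signalling in neurons, had 37 and 50 (23 and 31 in the representative transcript), and Pde4d, a cyclic AMP phosphodiesterase, had 35 and 49 (33 and 47). Msi2, an RNA-binding protein of progenitor cells, had 30 and 47, all in its representative transcript, within 358 kb of eligible bases (chr11:88339382-88718513). Nav2 had 30 and 46 (10 and 20 in the representative transcript) and Lsamp 28 and 46 (15 and 22), and neither is among the 15 richest genes when only representative transcripts are counted. Kirrel3 had 24 and 38, Trpm3 24 and 34 and Celf4 22 and 32, all in the representative transcript, and Ank3 had 22 and 35 (18 and 30). Gse1 had 32 and 41, of which 7 and 8 lay in the representative transcript, and it lies inside Gm20388, which counts the same regions. Ptprd had 23 and 41 (18 and 29 in the representative transcript), Arhgap26 24 and 32 in a readthrough model (20 and 26 in its own), and Phactr1 21 and 27. Of the 15 richest genes, 10 were common to the lists. At equal length of the lists, db/db had 31 regions in Dab1, 30 in Pde4d and 28 in Msi2.

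Set against the number expected from eligible length, these genes differed. Msi2 had 4.93 and 4.94 times its expected number and Celf4, also an RNA-binding protein, 5.07 and 4.72 times. Lsamp and Ptprd, cell adhesion genes over 2 Mb long, had 0.763 and 0.802 times and 0.611 and 0.696 times, and were rich in number but poor in density. Erbb4, a receptor tyrosine kinase and the longest gene on the lists described below after Fgfr2, had 2 and 6 regions in 1038 kb, or 0.113 and 0.218 times the expected number. Tek, the angiopoietin receptor of endothelial cells, had none in 128 kb.

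By density, Ccdc85c led both lists, with 13 and 16 regions in 67.3 kb (chr12:108203602-108275425), 193 and 238 per Mb, or 11.4 and 8.95 times the expected number. Its regions were mostly weak, with signals from 2.86 to 10.6 in control, and 8 and 10 of them lay in intron 1. All 13 control regions were shared, where 5.76% of control members had no overlap. Nfix, a glial transcription factor, had 11 and 17 in 82.5 kb (133 and 206 per Mb), of which 7 and 13 lay in its representative transcript, with control signals from 3.21 to 8.19. Smad6, an inhibitor of BMP signalling, had 9 and 10 regions (8.28 and 5.89 times expected), and all 9 control regions were shared. Dpysl2, a regulator of microtubules in axon growth, had 8 and 11. The control list went on with Clip2 (7 and 7), Ahdc1 (7 and 8), Osbpl5 (7 and 7), Nectin1 (6 and 5), Plxdc1 (6 and 8) and Tmem104 (6 and 6). The db/db list had Elk3 (6 and 10), Dnaja3 (5 and 9), Gng7 (5 and 9), 3110082I17Rik (4 and 11), Macrod1 (14 and 20) and Nxn (4 and 21). The regions of Dnaja3 all lay outside its representative transcript, and the spans of 3110082I17Rik and Macrod1 hold 3 and 1 other coding genes. In this order 4 of 10 genes were common to the lists.

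The genes with the most regions in db/db only, beside Gm20388 (54) and Fgfr2 (40), were Prkg1 (33), Adamtsl1 (26) and Nlgn1 (22). Prkg1, the cyclic GMP-dependent protein kinase, had 15 regions in control and 48 in db/db, 0.752 and 1.54 times the expected number, and all 15 control regions were shared. Its 33 regions in db/db only had signals from 2.91 to 12.4 and a median percentile of 22.8, below the median of 69.3 of its shared db/db regions. At equal length of the lists Prkg1 had 24 regions in db/db. Adamtsl1 had 13 and 38, of which 2 and 12 lay in its representative transcript, and 13 and 13 at equal length. Nlgn1, a postsynaptic adhesion protein, had 17 and 38. Nxn, nucleoredoxin, had 3 of 4 control and 19 of 21 db/db regions in intron 1, and its 17 regions in db/db only had signals from 3.02 to 7.91 at a median percentile of 9.34. At equal length Nxn had 4 and 6. In control, the most regions in that list only were in Gm20388 (8) and in Phactr1, Dscaml1, Dab1 and Fgfr2 (4 each).

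**Figure D4:**
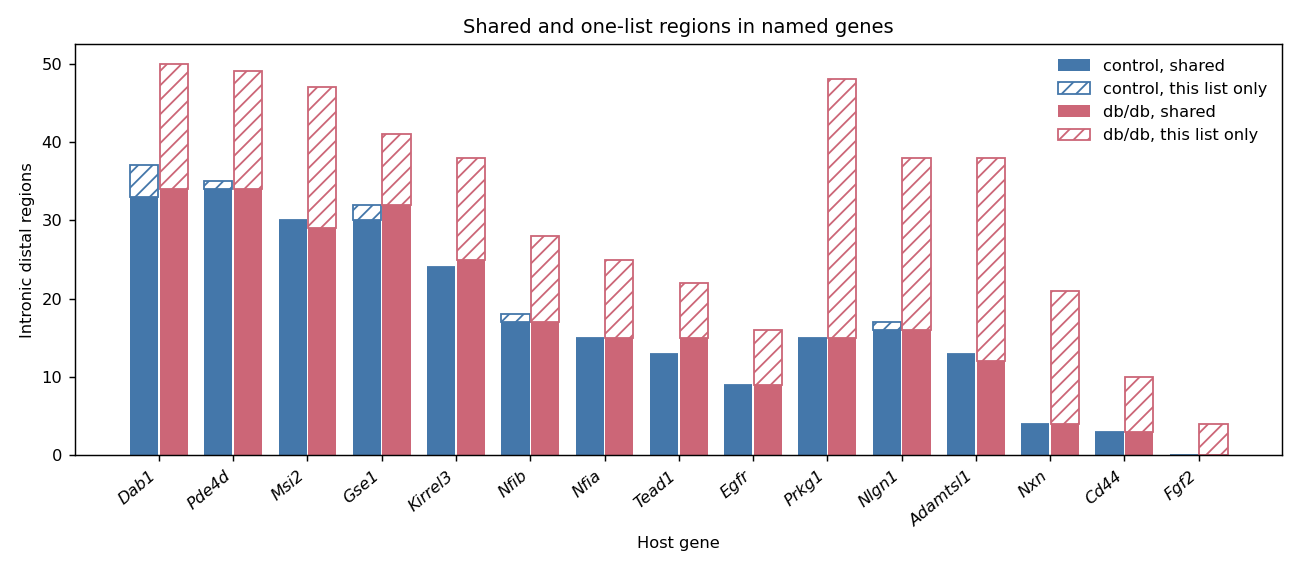
Number of intronic distal regions in 15 named genes in the control and the db/db list, 1 bar per list. Filled parts are regions shared with the other list and hatched parts are regions found in that list only. Prkg1, Nlgn1, Adamtsl1, Nxn and Cd44 have more hatched than filled regions in db/db, and Fgf2 has hatched regions only.

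Genes of 12 lists of retinal cell types and pathways were set against their expected numbers. Some genes, such as Sox9, Gfap, Tgfbr1, Ptch1 and Aldh1l1, are on more than 1 list. Over all genes the ratio of observed to expected is 1 by construction. Counts of regions found in 1 list only are to be read against the shares of all intronic distal regions, 5.76% in control and 39.8% in db/db. The shares over all regions were 4.07% and 31.4%. Counts at equal length are to be read against 17.96% of control and 17.7% of db/db intronic distal regions. Over all regions these shares were 13.1% and 12.9%. Counts given without mention of equal length are those of the full lists, of which the db/db list is the longer. The Müller marker genes held 13 regions in control and 21 in db/db, 3.09 (exact Poisson interval 1.64 to 5.28) and 3.19 (1.97 to 4.88) times their expected number, in 6 and 7 of 15 genes, and 15 in db/db at equal length. All 13 control regions were shared, and at equal length 1 of the 13 was in control only. Kcnj10, the potassium channel through which Müller cells buffer potassium, had 3 in each list, all in intron 1. Their control signals were 5.91 (chr1:172342687-172343280), 12.4 (chr1:172349642-172350853) and 9.76 (chr1:172364569-172365245), and the db/db signals of the same places were 6.03, 13.9 and 13.2. Slc1a3, the glutamate transporter GLAST, had 3 in control, with signals of 9.43 (chr15:8659390-8660423), 3.38 and 7.46, and 6 in db/db, all in intron 3. The 3 of Slc1a3 found in db/db only had signals of 2.47, 3.90 and 6.00. Dkk3 had 2 and 4, Gpr37 2 and 3, Aqp4, the water channel, 2 and 2, Abca8a 1 and 2 and Crym 0 and 1. At equal length db/db had 4 regions in Slc1a3, 4 in Dkk3, 1 in Gpr37, 2 in Aqp4, 1 in Abca8a and 0 in Crym. Glul, Rlbp1, Vim, Apoe, Clu, Car14, Prdx6 and Sox9 had none. Prdx6 has the most eligible bases among these, 6.30 kb, and Apoe has none.

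The glial and progenitor transcription factors held 75 and 122 regions, 3.47 (2.73 to 4.35) and 3.61 (3.00 to 4.31) times the expected number, and 77 in db/db at equal length. Counted in representative transcripts they held 55 and 99, or 3.15 and 3.61 times. The NFI family made up most of them. Nfib had 18 and 28 (7 and 16 in the representative transcript), Nfia 15 and 25 (14 and 24), Nfix 11 and 17 (7 and 13) and Nfic 5 and 7 (2 and 3). At equal length db/db had 17 regions in Nfib, 12 in Nfia, 12 in Nfix and 6 in Nfic. The span of Nfix holds 2 other coding genes. Tead1, the DNA-binding partner of YAP, had 13 and 22 (16 in db/db at equal length), and Tcf7l2, a Wnt effector, 7 and 15 (9). Of the 75 control regions 2 were found in control only, or 2.67%, and 7 at equal length, where the share of all control members was 17.96%. Lhx2 had 1 and 2, Pax6 1 and 2, Rax and Sox8 1 and 1, and Six3 0 and 1. Sox2, Hes1, Hes5 and Six6 have no eligible base.

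Notch and growth factor genes held 125 and 201 regions, 1.54 (1.28 to 1.83) and 1.58 (1.37 to 1.82) times the expected number, and 127 in db/db at equal length. Of these, 70 and 106 are those of the long Fgfr2 model. Counted in representative transcripts, the list had 53 and 91 regions, 1.48 and 1.61 times. Igf1r, the receptor of insulin-like growth factor, had 14 and 22, and Notch2 11 and 15, with 5 in intron 1 in each list. Egfr had 9 and 16 (3.66 and 4.16 times), with all 9 and 15 of 16 in intron 1. The control signals of Egfr ran from 3.40 to 10.6, and 7 of its db/db regions were found in that list only. At equal length db/db had 13 regions in Igf1r, 10 in Notch2 and 9 in Egfr. Bmpr1b had 7 and 10, Ptch1, the hedgehog receptor, 2 and 8 (6 in db/db at equal length), Notch1 4 and 5 and Jag1 3 and 2.

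The glucocorticoid receptors and their targets held 42 and 74 regions, 1.77 (1.28 to 2.39) and 1.99 (1.57 to 2.50) times the expected number, and 46 in db/db at equal length. Most were in Aldh1l1 (10 and 15, of which 4 and 6 lay in its representative transcript), Zbtb16 (8 and 12), Sfxn5 (8 and 10) and Nr3c2, the mineralocorticoid receptor (3 and 10). At equal length db/db had 10, 9, 7 and 5 in these genes. Ptch1, counted on the Notch and growth factor list too, had 2 and 8, and 6 in db/db at equal length. Nr3c1, the glucocorticoid receptor gene itself, had 0 in control and 1 in db/db in 96.5 kb, and 0 in db/db at equal length. Fkbp5, a classical target, had the same 2 regions in both lists: that in intron 11 (chr17:28407393-28407907) had signals of 19.2 and 17.8, and that in intron 1 had 6.71 and 8.58. None of the 42 control regions was found in control only, and 6 were at equal length, where the share of all control members was 17.96%. Gliosis genes held 10 and 23, 1.57 (0.751 to 2.88) and 2.304 (1.46 to 3.46) times, and 15 in db/db at equal length. Cd44, a hyaluronan receptor of reactive glia, had 3 and 10, and 6 in db/db at equal length. Its 3 shared regions had db/db signals of 15.3, 12.5 and 13.5. The 7 of Cd44 found in db/db only had signals from 3.29 to 8.39, and 6 of them lay in intron 1, where control had none. Fgf2 had 0 and 4, with signals of 8.51, 8.69, 3.73 and 6.43, and 2 of the 4 remained at equal length. Gfap, Stat3 and Serpina3n had none in either list.

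Rod genes were the list in which control had more regions than db/db, 13 against 10, or 1.23 (0.653 to 2.10) and 0.603 (0.289 to 1.11) times the expected number, with overlapping intervals. At equal length of the lists they had 13 and 7, and control then also had more regions than db/db among bipolar cell genes (29 and 26), astrocyte genes (17 and 14) and microglia genes (9 and 7). Of the 13 control regions of rod genes 6 were found in control only (46.2%, against 5.76% of intronic distal and 4.07% of all control regions). In db/db, 3 of the 10 were found in db/db only (30.0%, against 39.8% and 31.4%). Prph2, a structural protein of the outer segment, had 2 and 1, Nr2e3 2 and 1, Pde6a 2 and 1, Crx 1 and 0, Reep6 0 and 1, and Pde6b, Cngb1 and Rp1 2 and 2. The Crx region (chr7:15875532-15875835) had a signal of 4.83, at the 4.81st percentile. Gnat1, Nrl and Gngt1 have no eligible base. Cone genes held 11 and 23, 0.866 (0.432 to 1.55) and 1.16 (0.734 to 1.74) times, of which Thrb had 8 and 16, although 0 and 1 of these lay in its representative transcript. At equal length cone genes had 14 in db/db, and Thrb 10. Bipolar cell genes held 29 and 44, 1.53 (1.03 to 2.20) and 1.49 (1.08 to 1.99) times, of which Prkca had 15 and 24. The region in Otx2, a photoreceptor and bipolar cell factor, was in control only, with a signal of 4.11. Amacrine, horizontal and ganglion cell genes held 15 and 22, 1.57 (0.877 to 2.58) and 1.47 (0.921 to 2.22) times, and 15 in db/db at equal length.

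The remaining lists were astrocyte genes with 17 and 27 regions, 3.03 (1.77 to 4.85) and 3.08 (2.03 to 4.48) times, microglia genes with 9 and 14, 1.34 (0.614 to 2.55) and 1.34 (0.730 to 2.24) times, and endothelial and pericyte genes with 21 and 39, 1.65 (1.02 to 2.52) and 1.96 (1.39 to 2.67) times. Aldh1l1, which is also on the glucocorticoid list and is made by many glia, held 10 and 15 of the astrocyte regions, 4 and 6 of them in its representative transcript. Slc1a2 had 3 and 7, and Gfap and Gja1 had none. Among microglia and endothelial genes, Cx3cr1 had 4 and 6, none of them in its representative transcript and in a span with 4 other coding genes. Flt1 had 6 and 15 and Pdgfrb 4 and 8. At equal length db/db had 24 regions in the endothelial and pericyte genes, 7 of them in Flt1 and 6 in Pdgfrb. Counted in representative transcripts, the ratios of microglia genes fell to 0.662 and 0.982 and those of cone genes to 0.436 and 0.740. Those of endothelial and pericyte genes rose to 1.85 and 2.13. Bipolar cell genes had 1.47 and 1.47, amacrine, horizontal and ganglion cell genes 1.46 and 1.40, and rod genes 1.04 and 0.543. The Müller markers had 2.87 and 3.04 and the astrocyte genes 2.47 and 2.57. Which cells the intronic regions came from was not tested.

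**Figure D5:**
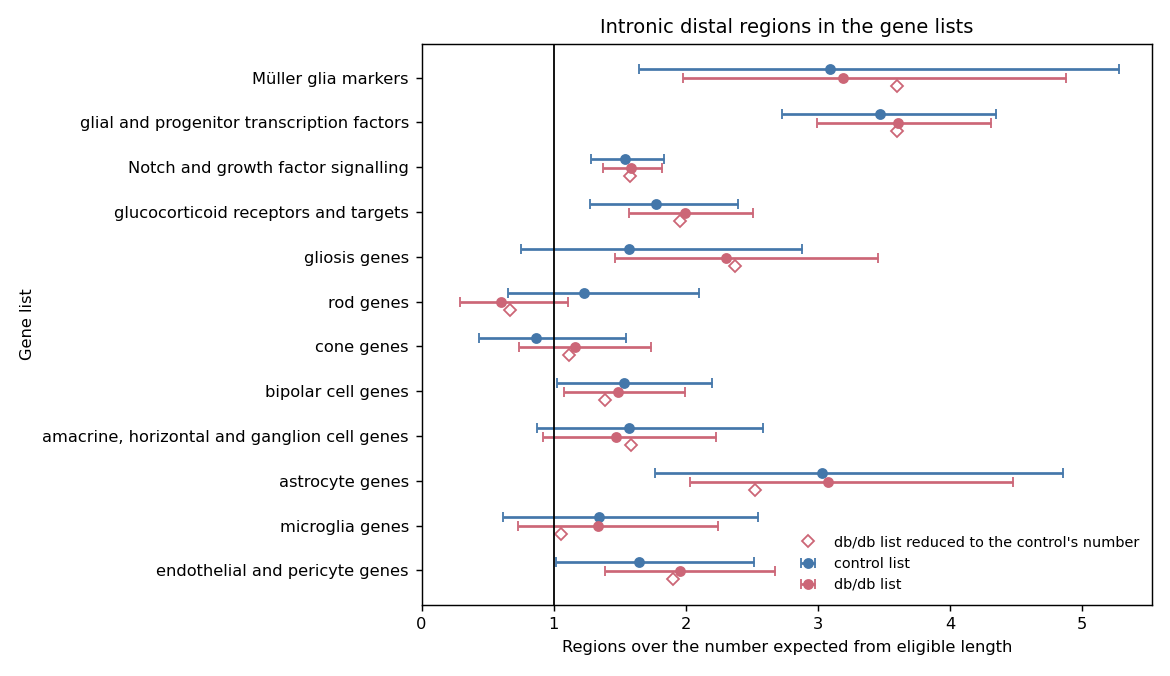
Observed number of regions over the number expected from eligible length for the 12 gene lists, in control and db/db, with exact Poisson intervals; open diamonds give the db/db list at equal length, and the line at 1 marks the density of all genes. Müller markers, glial transcription factors and astrocyte genes lie at 3.03 or above in both full lists, and rod genes in db/db are lowest at 0.603.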

How the data were processed

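ATAC-seq was performed by the authors on Müller cells purified by magnetic sorting, with the omni-ATAC protocol and paired reads. The data used are 2 peak lists in NarrowPeak form, 1 per genotype, with 81757 peaks in control and 109995 in db/db. For each peak the authors deposited its start, end and summit in bases, a score and a signal, a measure of enrichment whose scaling is not given. The authors also deposited the −log10 of the p-value and of the q-value of each peak. Coordinates are those of mm10, per the submitters' processing notes. The peak caller, its threshold, the read depth and whether replicates were pooled are not given in the sources used here. The ATAC-seq samples of replicate 2 and the RNA-seq samples, for which the notes name HISAT2 and StringTie, were not analysed here.

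Computations used pandas 2.3.3, numpy 2.4.6 and scipy 1.17.1 under Python 3.11.15, and figures were made in matplotlib 3.10.9. Overlapping peaks of a list were merged, with the summit and values of the peak of highest signal. The annotation of genes, exons and TSS was GENCODE M21. Eligible bases of a gene are those inside it, in no exon and more than 1 kb from any TSS, and the expected number of a gene is its eligible length times the density of the list. First and later introns were those of 1 representative transcript per gene (protein-coding, APPRIS principal before others, then the longest). A region was called shared when 1 bp or more of it lay in a region of the other list. Intervals are at 95%, of the Wilson kind for shares and exact Poisson for densities. Those of density ratios were computed on the log scale. Signals were ranked within a list, and values of both lists are set side by side at shared places without a test. The steps were tested on simulated data.

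Genes were named by rule: the 15 with most regions in each list, the 10 densest with at least 50 kb eligible and 5 regions, members of 12 gene lists, the 5 regions of highest signal overall and in 1 list only, the 5 genes with most regions in 1 list only, and the 3 regions to each side of the 1 kb limit. A few items that this rule names are not reported here. The members and lists were chosen with earlier results of these data known. Sequences are from RefSeq (GRCm38.p6), of which 31396 start windows were searched for 8 strings on both strands. In all, 10 alternatives were planned and 3 were added after the data had been seen: the order of genes in representative transcripts, first against later introns for introns of at least 5 kb, and the same without readthrough models.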

Additional observations from a re-analysis of the deposited data

How the results depend on the processing

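No paired analysis was possible because a single peak list per genotype was analysed and no result comes from a test. Of 112 values under alternatives for the main results, 84 were called the same and 28 moved. Shares and densities were called the same inside the interval of the main value, counts within 1.5 times and median percentiles within 5 points. Ratios of first to later introns were called the same when their interval stayed above 1. The control ratio of 1.32 among genes with a promoter region was thus called the same, though outside the main interval of 1.20 to 1.29. The order of the lists changed at equal numbers of regions for the share of members (31.1% in control and 30.8% in db/db), the density (17.0 and 16.8 per Mb), the genes with at least 1 region (5139 and 5114), the ratio of first to later introns (1.24 and 1.22) and the share found in 1 list only, and without merging for the median percentile. Of 112 for single genes, 24 moved. Counted by any number of peaks per region, the share of intronic distal regions was 32.1% in control and 35.7% in db/db, and the density 17.5 and 27.5 per Mb. More than 5 kb from a TSS the shares were 23.3% and 26.1%, and the control density 16.7 per Mb. With TSS and exons of protein-coding transcripts only, shares were 34.3% and 37.8% and densities 17.5 and 27.1 per Mb. Without merging, shares were 26.4% and 30.1%, densities 25.4 and 39.1 per Mb, median percentiles 50.2 and 48.7, and shares found in 1 list only 5.11% and 37.9%. With summits inside 1 gene only, densities were 16.2 and 25.3 per Mb. At equal numbers of regions db/db had 13937 members, and the shares found in 1 list only were 17.96% in control and 17.7% in db/db. In representative transcripts without readthrough models, 7 of the 15 richest genes in control and 8 in db/db kept their place among the 15. The ratio of first to later introns stayed above 1 under each alternative run, from 1.22 to 1.32 in both lists. A threshold of 5 on −log10 q kept 14064 control and 21959 db/db members.

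These limits apply throughout. A single list per genotype leaves genotype, animal, library and sequencing depth in a position where they cannot be told apart. Depth is not given, and a region missing from 1 list was not shown to be closed. Host genes are those whose span holds the summit, and the gene that a region acts on was not tested.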

Other observations

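With the db/db list reduced to the number of control regions, gains and losses summed over genes about cancel by construction, so single genes are described here. The SD of the difference over genes with a region in either list was 1.05 regions. Of the genes with a region, 1350 had more in db/db, 1451 had more in control and 2801 had as many in both. A difference of 5 or more, in either direction, was found in 22 genes. These genes were named after their values were seen. The largest gain was in Prkg1, from 15 to 24 regions, 10 of them in db/db only. At this length 17.7% of all db/db members and 12.9% of all db/db regions were in db/db only. The readthrough model Gm20388 came next, from 127 to 135. Akap6, which anchors protein kinase A, went from 9 to 14, Camta1 from 18 to 23, Cdkal1 from 6 to 11, Lpp from 9 to 14, Lrrc4 from 2 to 7, Macrod1 from 14 to 19 and Pde10a, a phosphodiesterase of cyclic nucleotides, from 14 to 19.

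The largest losses at equal length were in Cadm1, a cell adhesion gene, from 16 to 8, and in Pard3, a polarity gene of junctions, from 13 to 5. Dab1 went from 37 to 31, Dscaml1 from 13 to 7, Npas3 from 18 to 12, Itpr2, a calcium release channel, from 12 to 7, Pde4d from 35 to 30, Plekhm3 from 12 to 7, Ablim1 from 10 to 5 and Dpf3 from 10 to 5. A loss here is not an absence from the full db/db list, since the reduction drops its regions of lower −log10 p. In the full lists Dab1 had 37 regions in control and 50 in db/db, with 4 in control only. Pde4d had 35 and 49, with 1 in control only, and Dscaml1 had 13 and 12, with 4 in control only. With 1 list per genotype, none of these differences was tested.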
